A study of Mus musculus with 9 samples.

Results

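Glycolysis and hypoxia response genes were followed in the epidermis of mouse embryos that lacked the epithelial splicing regulators Esrp1 and Esrp2. The set held 37 genes, chosen by symbol from a table of 38203 genes, and every symbol had a single entry in the table. It comprised the enzymes and transporters that turn glucose into lactate, the oxygen-regulated transcription factor subunit Hif1a, a pair of its oxygen sensors, and genes that are commonly used as readouts of the hypoxia response. The RNA came from purified total epidermis of E18.5 embryos on a mixed C57BL6/129Sv background. WT embryos (2 libraries) carried wild-type alleles of both genes by their sample labels and were the controls. A design note of the same study lists the control embryos as lacking Esrp2, but Esrp2 was expressed in both of these libraries, and the sample labels were followed. KO embryos (3 libraries) lacked Esrp1 and kept both Esrp2 alleles, KH embryos (2 libraries) lacked Esrp1 and were heterozygous for Esrp2, and DKO embryos (2 libraries) lacked both genes. All alleles were germline, so that Esrp1 was absent from every tissue of the KO, KH and DKO embryos and not from the epidermis alone. The comparison asks how this metabolic program stood when Esrp1 alone, or both regulators, were missing. Levels are given as FPKM, fragment counts scaled to transcript length and to library size, and each fold change is a difference on the scale of log2(FPKM + 1).

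Glycolysis splits glucose into pyruvate in the cytosol, and lactate dehydrogenase turns the pyruvate into lactate when it is not passed on to the mitochondria. When oxygen falls, prolyl hydroxylases of the Egln family stop marking the HIF alpha subunits for destruction, and the stabilised factor raises glucose uptake, nearly every glycolytic enzyme, and proteins that trim or remodel mitochondria. The epidermis has no blood vessels of its own and receives oxygen by diffusion from the dermis and from its surface.

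Esrp2 stood at 118 and 136 FPKM in WT, at 88.1 to 131 FPKM in KO, at 38.6 and 89.5 FPKM in KH and at 0.0843 and 0.0463 FPKM in DKO. KH replicate 2, labelled heterozygous, was thus within the range of KO, where both Esrp2 alleles are wild type, and it also had the highest Esrp1 of the mutant libraries. Esrp1 stood at 119 and 142 FPKM in WT against 18.2 to 55.1 FPKM in the 7 libraries of the other genotypes. The Esrp1 deletion removes only part of the gene, so the remaining Esrp1 reads do not bear on the labels. Markers of basal, spinous and granular keratinocytes were high in every library, whereas the 5 skeletal muscle and 4 endothelial markers all stayed below 1 FPKM. The summed basal markers ranged from 4226 to 4275 FPKM in WT and from 5752 to 7093 FPKM in DKO, a sum that is mostly Krt5 and Krt14. Itga6 was also higher in both DKO libraries, whereas Trp63 was lower (53.6 and 49.9 FPKM in WT, 36 and 47.8 FPKM in DKO) and Col17a1 overlapped. The summed spinous markers ranged from 61862 to 74559 FPKM and from 35073 to 60615 FPKM, so neither sum overlapped between WT and DKO, while the granular sum did, with 8070 to 10207 FPKM and 5613 to 10766 FPKM. The spinous gap rested on Krt1 and Krt10, since Krtdap (15167 and 13451 FPKM in WT, 22567 and 9032 FPKM in DKO) and Sbsn overlapped. The basal and spinous sums overlapped between KO and DKO, with 4720 to 7852 FPKM and 31685 to 85165 FPKM in KO. Markers of other cells also varied. The summed dermal fibroblast markers, mostly Dcn, ranged from 74.5 to 85.4 FPKM in WT and from 44.1 to 75.2 FPKM in DKO. They ranged from 82.8 to 149 FPKM in KO and from 50.7 to 138 FPKM in KH. Col1a1 and Col3a1 reached 2.65 and 5.39 FPKM in KO replicate 1 and stayed below 1 FPKM in every other library. The summed melanocyte markers ranged from 40.0 to 44.0 FPKM in WT and from 89.8 to 196 FPKM in DKO, and the 3 red blood cell markers in the table from 28.1 to 217 FPKM and from 144 to 559 FPKM. The summed immune markers were 2.66 to 6.74 FPKM in WT and 8.55 to 19.5 FPKM in DKO, a gap that rested on Cd74, since Ptprc and Cd3e overlapped and Cd207 was at or near 0. Xist was expressed in WT replicate 2 and all KO libraries and was at or below 0.178 FPKM in WT replicate 1, both KH and both DKO libraries, so the sex of the embryos differed within WT, and between KO and both KH and DKO. The part of these differences in the results that follow was not tested. In bulk RNA, fewer cells of a type and less RNA per cell cannot be told apart.

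The largest differences lay in the mitochondrial HIF targets. In DKO epidermis 3 of the 37 genes were called against WT, all lower, namely Mgarp, Bnip3 and Ak4. A call required an adjusted p below 0.05 in limma and a difference above 2-fold in average FPKM. Among all 16897 genes tested, 0.249% were called lower, 0.479% higher and 0.728% in either direction. That Mgarp is lower in DKO was known when the set was assembled, and its DKO values are therefore a description with no test, against WT and also against KO and KH. The p-values of Bnip3 and Ak4 are adjusted over all tested genes, but these genes too were not chosen independently of the data.

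Mgarp (ENSMUSG00000037161), on chromosome 3 of GRCm38 (chr3:51388412-51396738), codes for a protein of the mitochondrial membrane that takes part in the movement of mitochondria along microtubules. It stood at 14.97 and 26.05 FPKM in WT, at 7.93, 7.95 and 19.4 FPKM in KO, at 7.64 and 7.71 FPKM in KH, and at 0.437 and 0.511 FPKM in DKO. The DKO libraries were far below all 7 others, at 2.31% of the WT mean, and the log2 difference to WT was -3.82 (SE 0.42). Both KH libraries also lay below both WT libraries, with a log2 difference of -1.26 (SE 0.42) that was not called (adjusted p = 0.98, limma). Against KO, which shares the Esrp1 deletion and differs in Esrp2, the log2 difference of Mgarp was -2.999 (SE 0.38), and against KH it was -2.56 (SE 0.42).

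Bnip3 (ENSMUSG00000078566, chr7:138890836-138909519) codes for an outer mitochondrial membrane receptor for mitophagy. Its level was 74.3 and 131 FPKM in WT, 52.4, 56.0 and 107 FPKM in KO, 51.2 and 73.8 FPKM in KH, and 20.8 and 9.92 FPKM in DKO. Here too the DKO libraries did not overlap with any other, at 15.02% of the WT mean. Bnip3 fell by 2.69 on the log2 scale in DKO against WT (SE 0.46, adjusted p = 0.0418, limma). The differences of -2.16 against KO (adjusted p = 0.084) and -2.02 against KH (adjusted p = 0.212) were not called.

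Ak4 (ENSMUSG00000028527, chr4:101419277-101466995) is an adenylate kinase of the mitochondrial matrix. The libraries gave 12.6 and 20.9 FPKM in WT, 18.1, 16.3 and 21.9 FPKM in KO, 14.2 and 13.1 FPKM in KH, and 4.86 and 4.76 FPKM in DKO. KO overlapped with WT, KH lay within the WT range, and DKO lay below every other library at 28.7% of the WT mean. Ak4 fell by 1.57 against WT (SE 0.26, adjusted p = 0.037) and fell by 1.76 against KO (SE 0.24, adjusted p = 0.0141) in limma, and its difference of -1.33 against KH was not called (adjusted p = 0.11).

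Bnip3l, the paralog of Bnip3 that clears mitochondria from maturing red blood cells and other cells, showed a smaller difference. It stood at 102 and 159 FPKM in WT, at 67.9, 68.7 and 136 FPKM in KO, at 73.9 and 115 FPKM in KH, and at 63.5 and 51.3 FPKM in DKO. The DKO libraries were the lowest of the 9, with a log2 difference to WT of -1.15 (SE 0.39) that was not called (adjusted p = 0.261). For this group of 4 genes the median log2 fold change was -2.13 in DKO, -0.55 in KO and -0.57 in KH against WT, where the median over all tested genes was 0.02, 0.00 and 0.00. Without Mgarp the medians of the other 3 genes were -1.57, -0.53 and -0.46. By library and relative to the WT mean, the median of the 4 genes was -0.36 and 0.36 in WT and -0.90, -0.84 and 0.10 in KO. It was -0.85 and -0.35 in KH and -1.87 and -2.39 in DKO. The roles were assigned with results known, so these medians are descriptive.

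The calls, more than the differences, moved with the settings. With every gene of the table kept, none of the 37 was called, and with the replicate number as a block Mgarp alone was called. In DKO against WT, 0 of the 37 genes were called without DKO replicate 1, DKO replicate 2 or WT replicate 2, Mgarp alone was called without either KH library, KO replicate 1 or KO replicate 2, and Ak4 and Mgarp were called without WT replicate 1. The log2 differences over these fits stayed between -4.20 and -3.44 for Mgarp, -3.19 and -2.19 for Bnip3, and -1.92 and -1.23 for Ak4. In fits with a lone library for WT or DKO the spread came from the remaining genotypes, which leaves little power for a call. When only the libraries with low Xist were compared, the differences of Mgarp, Bnip3 and Ak4 between DKO and WT were -3.44, -2.29 and -1.23, with a single WT library and none called. DKO and KO differed in Xist throughout, so sex and Esrp2 genotype cannot be told apart there.

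**Figure D1:**
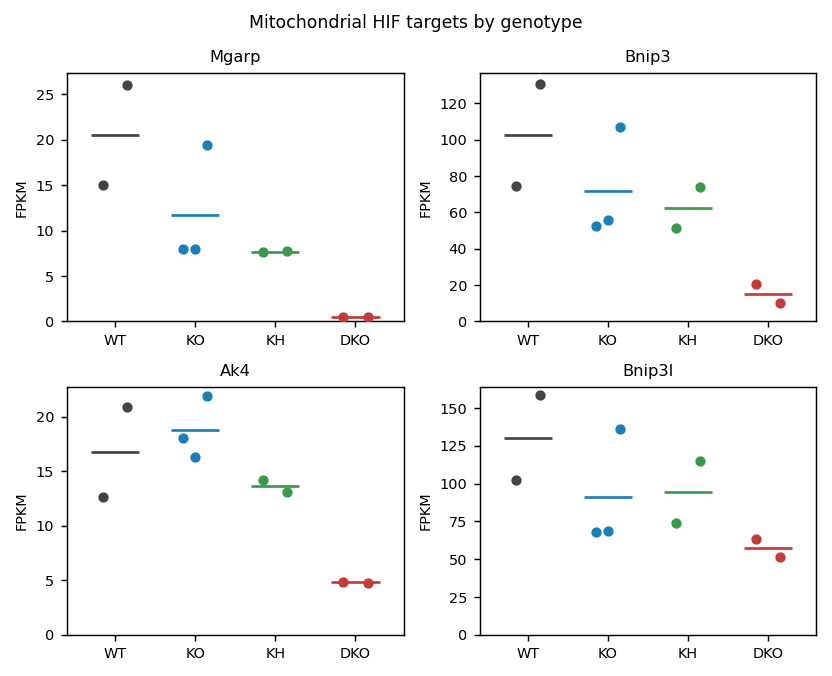
FPKM of the mitochondrial HIF targets Mgarp, Bnip3, Ak4 and Bnip3l by genotype, on linear axes that start at 0, with 1 point per library and a line at the mean of each genotype. The 2 DKO points lie below all 7 others in each panel, and Mgarp is nearest to 0.

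The sequence just before the start of each called gene is shown because hypoxia-inducible factors bind short elements with the core ACGTG or GCGTG. RefSeq promoter windows on GRCm38.p6 were available for 34 of the 37 genes and were searched over the 250 bases before each start, on both strands. Capitals mark each match on either strand, and a CACGTG counts on both strands because it is its own reverse complement. Each stretch is printed 5′ to 3′ on the strand of the gene and stops before the first base that lies in a GENCODE M21 exon of that gene. Where a gene had several windows the one with the most matches was taken. The Ldha stretch lies in an intron of a longer GENCODE transcript that starts farther upstream. The called genes Mgarp (chr3:51396739-51396797, minus strand), Bnip3 (chr7:138909520-138909756, minus strand) and Ak4 (chr4:101419039-101419276, plus strand) are set beside a pair of glycolytic genes that were not called, Ldha (chr7:46845554-46845803, plus strand) and Hk2 (chr6:82774455-82774704, minus strand).
Mgarp: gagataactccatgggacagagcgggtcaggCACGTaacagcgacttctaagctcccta
Bnip3: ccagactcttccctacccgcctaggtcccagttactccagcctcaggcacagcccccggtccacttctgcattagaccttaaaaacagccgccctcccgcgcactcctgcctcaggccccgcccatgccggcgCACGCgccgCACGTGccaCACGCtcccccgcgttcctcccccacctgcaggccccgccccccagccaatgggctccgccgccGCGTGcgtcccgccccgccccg
Ak4: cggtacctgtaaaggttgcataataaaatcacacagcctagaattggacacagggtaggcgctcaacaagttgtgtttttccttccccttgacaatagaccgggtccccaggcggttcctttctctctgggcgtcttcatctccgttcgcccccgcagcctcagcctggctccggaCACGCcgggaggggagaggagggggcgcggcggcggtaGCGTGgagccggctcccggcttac
Ldha: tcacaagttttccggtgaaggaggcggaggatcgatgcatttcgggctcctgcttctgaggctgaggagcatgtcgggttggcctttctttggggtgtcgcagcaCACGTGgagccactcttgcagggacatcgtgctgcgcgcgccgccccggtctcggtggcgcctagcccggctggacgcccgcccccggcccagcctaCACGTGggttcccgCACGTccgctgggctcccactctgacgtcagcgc
Hk2: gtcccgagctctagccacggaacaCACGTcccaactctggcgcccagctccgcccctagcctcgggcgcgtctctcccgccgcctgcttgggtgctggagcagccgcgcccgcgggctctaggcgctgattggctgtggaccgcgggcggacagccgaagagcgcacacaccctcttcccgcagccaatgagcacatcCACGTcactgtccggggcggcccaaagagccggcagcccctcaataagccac

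Mgarp had 1 match, Ak4 and Hk2 had 2 each, and Bnip3 and Ldha had 5 each, a number reached by 1.01% of all 32851 windows in the table. Ldha had a further window with 1 match, so its number depends on the start that is used, and each of the 4 windows of Ak4 had 2 matches. Of the 53 windows of the gene set 44 held at least 1 match (83.0%), against 38.6% of all windows. The windows of the set were also richer in CpG, with a median of 14 CpG per window against 6, and in G and C, with a median of 61.6% against 52.4%, and the part of base composition in the share of matches was not tested. A match is a string of letters and was not measured as bound.

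Among the regulators, Hif1a, the oxygen-labile subunit of the transcription factor, stood at 28.7 and 48.5 FPKM in WT, at 25.5, 22.3 and 41.0 FPKM in KO, at 37.01 and 19.4 FPKM in KH, and at 13.3 and 16.3 FPKM in DKO. The DKO libraries lay below all others, at 38.3% of the WT mean, with a log2 difference of -1.29 (SE 0.39) that was not called (adjusted p = 0.215, limma). Egln1, the main prolyl hydroxylase that senses oxygen, had 32.9 and 39.6 FPKM in WT, 36.99, 34.5 and 38.7 FPKM in KO, 34.7 and 35.4 FPKM in KH, and 29.2 and 19.7 FPKM in DKO. Its groups did not overlap between DKO and the rest, and the log2 difference to WT was -0.57 (SE 0.22, adjusted p = 0.314). This difference ranged from -0.84 to -0.29 when 1 library was left out. Egln3, the sensor that hypoxia itself induces, spread from 54.4 to 133 FPKM with overlap of all genotypes.

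Of the secreted and surface targets, Adm, which codes for the vasodilator peptide adrenomedullin, was lower in every mutant library than in either WT library. It stood at 6.02 and 6.76 FPKM in WT, at 1.59, 1.64 and 3.32 FPKM in KO, at 1.31 and 3.21 FPKM in KH, and at 2.26 and 1.64 FPKM in DKO. Both WT libraries were above all 7 others, which held for 5.08% of all tested genes. The log2 difference to WT was -1.33 in DKO (SE 0.35, adjusted p = 0.156), -1.25 in KO (SE 0.32, adjusted p = 0.853) and -1.24 in KH (SE 0.35, adjusted p = 0.98), and none was called. The 3 comparisons share the same 2 WT libraries. Between DKO and KO the log2 difference of Adm was -0.08 (SE 0.32). Vegfa, the vascular growth factor, had 27.6 and 35.5 FPKM in WT and 16.0 and 15.2 FPKM in DKO, with KO at 12.6 to 23.2 FPKM, KH at 22.6 and 38.9 FPKM and a log2 difference between DKO and WT of -0.96 (adjusted p = 0.275). Car9, a surface carbonic anhydrase that is a classical hypoxia marker, did not exceed 0.444 FPKM in any library.

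The stress and transcription targets had log2 differences below 0 in DKO against WT in all 5 genes, from -0.82 for Mxi1, an antagonist of Myc, to -0.30 for the transcriptional repressor Bhlhe40, and none was called. The sign turned when 1 library was left out for Ankrd37 (0.30 without DKO replicate 2 and 0.06 without WT replicate 2) and for Bhlhe40 (0.34 without WT replicate 2). Ndrg1, a stress-induced differentiation gene, stood at 38.4 and 68.7 FPKM in WT, at 50.6, 35.7 and 67.2 FPKM in KO, at 44.5 and 40.6 FPKM in KH, and at 33.8 and 26.2 FPKM in DKO. The DKO libraries were again the lowest, with a log2 difference to WT of -0.77 (SE 0.35, adjusted p = 0.374). With 1 library left out the difference of Ndrg1 ranged from -1.18 to -0.36. Ddit4, an inhibitor of mTOR signalling, had a log2 difference of -0.70 (adjusted p = 0.372), and Ankrd37, an ankyrin repeat protein, one of -0.38 with 33.7 and 63.2 FPKM in WT and 57.1 and 21.6 FPKM in DKO. P4ha1 and P4ha2, the catalytic subunits of collagen prolyl hydroxylase, differed by 0.24 and 0.08 and were not called either.

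**Figure D2:**
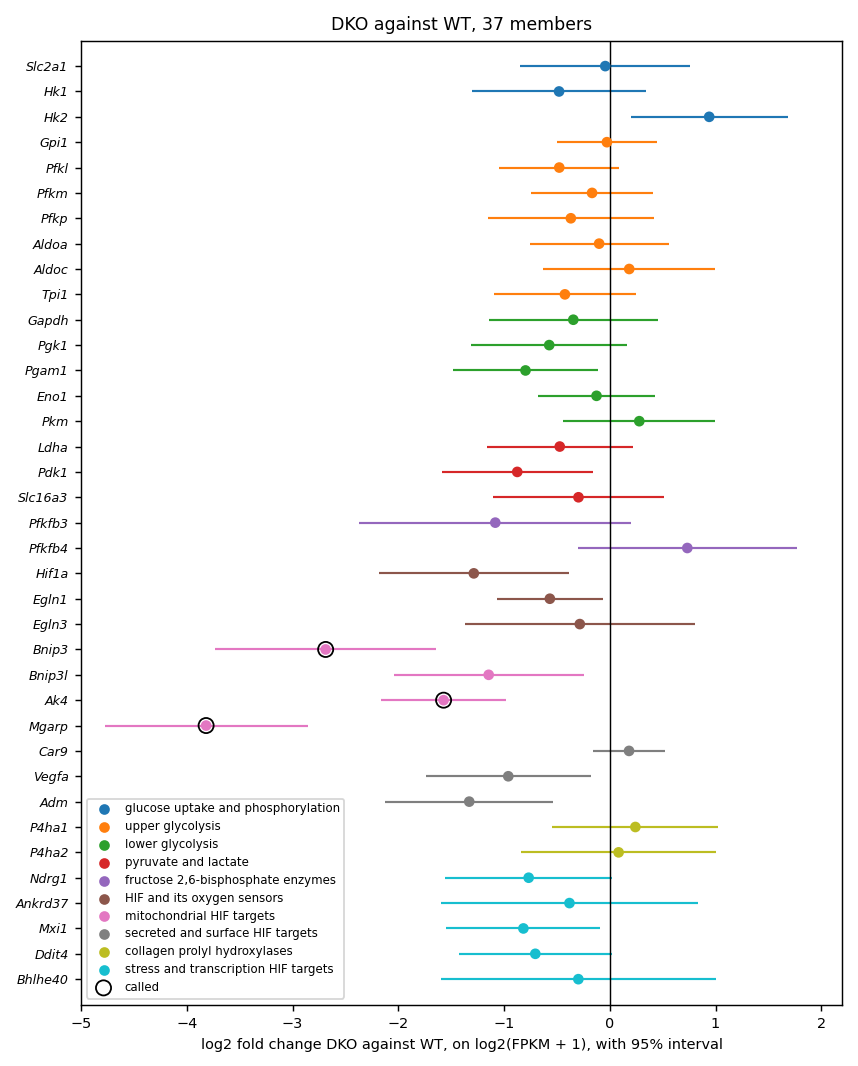
Log2 fold change of each of the 37 genes in DKO against WT on log2(FPKM + 1), as points with 95% intervals from the fit, coloured by role, with rings around the 3 called genes. Mgarp, Bnip3 and Ak4 lie farthest to the left together with intervals that end below 0, and the glycolytic genes at the top lie between -0.80 and 0.94.

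None of the glycolytic enzymes was called in any comparison, where at most 0.728% of all tested genes were. With so few calls over all genes, the absence of calls among these enzymes says little. Over the 15 genes from the glucose transporter Slc2a1 to pyruvate kinase Pkm, the median log2 fold change in DKO against WT was -0.17, compared with -0.74 for the 22 other members and with 0.02 for all tested genes. Of the 15 genes 12 were below 0, against 7911 of the 16897 tested genes. The other members include Mgarp, and also Ldha and Slc16a3. This split was made with results known, so its medians are descriptive. Among the 15 genes, Aldoa, Tpi1 and Pkm had the highest means, with 533 to 807, 345 to 713 and 342 to 663 FPKM over the 9 libraries. The same 15 genes had a median of 0.04 in KO and of -0.18 in KH.

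Entry of glucose was covered by Slc2a1 and the hexokinases. Slc2a1 ranged from 64.6 to 137 FPKM with overlap of WT and DKO. Hk2, the inducible hexokinase, had 43.5 and 47.9 FPKM in WT, 89.6, 66.9 and 65.6 FPKM in KO, 75.9 and 95.1 FPKM in KH, and 126 and 62.3 FPKM in DKO. All 7 mutant libraries were above both WT libraries, which 5.07% of all tested genes also showed, and the log2 differences of 0.67 in KO, 0.88 in KH and 0.94 in DKO were not called (adjusted p = 0.853, 0.98 and 0.266, limma). The difference in DKO ranged from 0.44 to 1.44 when 1 library was left out. Hk1, the constitutive hexokinase, had 19.7 and 25.3 FPKM in WT and 18.04 and 13.7 FPKM in DKO. The ratio of Hk2 to Hk1 was 2.21 and 1.89 for WT, 6.28, 4.25 and 2.32 for KO, 5.45 and 4.10 for KH, and 6.96 and 4.55 for DKO. This ratio was therefore lowest in the WT libraries, with KO replicate 3 nearest to them.

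In the upper part of the pathway, Gpi1, the 3 phosphofructokinase genes Pfkl, Pfkm and Pfkp, and the aldolases Aldoa and Aldoc had log2 differences between -0.48 and 0.18 in DKO against WT. Tpi1, triose phosphate isomerase, had 463 and 601 FPKM in WT, 483, 572 and 713 FPKM in KO, 519 and 458 FPKM in KH, and 447 and 345 FPKM in DKO. Its DKO libraries were just below all others, with KH replicate 2 nearest, and the log2 difference to WT was -0.42 (SE 0.29, adjusted p = 0.537). Pfkfb3 and Pfkfb4 set the level of the allosteric activator of phosphofructokinase. Pfkfb3, which mainly makes this activator, had 6.71 and 18.7 FPKM in WT, 11.8, 5.55 and 18.7 FPKM in KO, 14.6 and 9.55 FPKM in KH, and 5.80 and 3.98 FPKM in DKO. WT replicate 1 lay near the DKO libraries, and the log2 difference of -1.08 was not called (SE 0.56, adjusted p = 0.427). This difference ranged from -1.76 to -0.41 when 1 library was left out. Pfkfb4 had 13.0 and 9.50 FPKM in WT, 5.196, 10.1 and 8.75 FPKM in KO, 5.32 and 15.2 FPKM in KH, and 22.8 and 16.1 FPKM in DKO. It was the single member with both DKO libraries above all 7 others, which 5.33% of all tested genes also showed, with a log2 difference to WT of 0.73 (SE 0.45, adjusted p = 0.495). The ratio of Pfkfb4 to Pfkfb3 was 3.92 and 4.05 in DKO, and it lay between 0.364 and 1.94 in the other libraries.

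**Figure D3:**
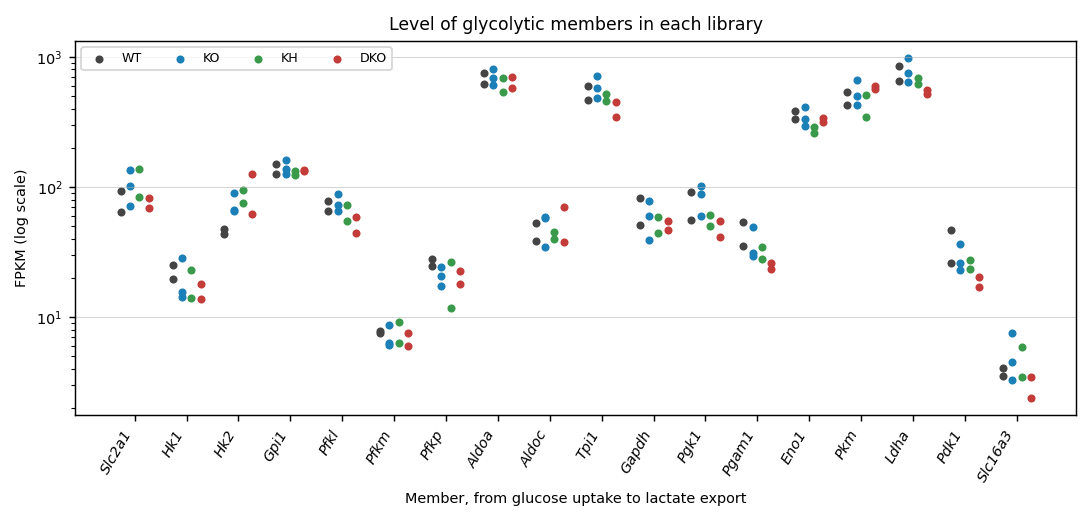
FPKM on a log axis of 18 genes in the order of the pathway from glucose uptake to lactate export, with 1 point per library coloured by genotype. Genotypes overlap for most genes, WT is lowest for Hk2, and DKO is lowest for Tpi1, Pgam1, Ldha and Pdk1.

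In the lower part, Gapdh had 50.9 and 82.6 FPKM in WT, 60.3, 38.8 and 77.9 FPKM in KO, 59.0 and 44.5 FPKM in KH, and 47.0 and 55.0 FPKM in DKO, with overlap of all genotypes. Pgk1, phosphoglycerate kinase, which is X-linked, had 55.5 and 91.8 FPKM in WT, 59.6, 87.6 and 101 FPKM in KO, 60.5 and 50.1 FPKM in KH, and 54.9 and 41.4 FPKM in DKO. Its log2 difference between DKO and WT was -0.57 (SE 0.32, adjusted p = 0.461). Pgam1, phosphoglycerate mutase, had 35.5 and 54.1 FPKM in WT, 29.5, 30.8 and 49.2 FPKM in KO, 34.4 and 27.8 FPKM in KH, and 23.5 and 26.2 FPKM in DKO. DKO was the lowest, with a log2 difference of -0.80 (SE 0.30, adjusted p = 0.3). The levels of Pgam1 and Pgk1 are uncertain because near-identical copies may share their reads, which was not measured. The copy Pgam1-ps2 was listed at 73.3 to 268 FPKM, above Pgam1 in every library, and Pgk1-rs7 at 5.87 to 25.9 FPKM. Copies were sought only by the symbol of a member. Any copy under another name, of Gapdh or of other members, was not covered. Eno1 and Pkm, enolase and pyruvate kinase, differed by -0.13 and 0.28 and were not called.

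For the fate of pyruvate, Ldha, which makes lactate, had 646 and 857 FPKM in WT, 641, 753 and 983 FPKM in KO, 684 and 616 FPKM in KH, and 554 and 517 FPKM in DKO. DKO was below all others at 71.3% of the WT mean, and the log2 difference of -0.47 was not called (SE 0.30, adjusted p = 0.507). Pdk1, the kinase that shuts pyruvate dehydrogenase off, had 26.1 and 47.1 FPKM in WT, 26.0, 23.2 and 36.8 FPKM in KO, 23.5 and 27.6 FPKM in KH, and 20.4 and 17.1 FPKM in DKO. DKO was again the lowest, at 51.2% of the WT mean with a log2 difference of -0.88 (SE 0.31, adjusted p = 0.279). With 1 library left out the difference of Pdk1 ranged from -1.29 to -0.46. The lactate exporter Slc16a3 was low throughout, from 2.39 to 7.49 FPKM.

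The ratio of Bnip3 to Bnip3l, chosen after the values were seen, was 0.727 and 0.821 for WT, 0.772, 0.816 and 0.784 for KO, 0.693 and 0.640 for KH, and 0.328 and 0.193 for DKO. Both paralogs are HIF targets and both were lowest in DKO, and their ratio varied less among the 7 other libraries than either gene did. The ratio of Pdk1 to Ldha was 0.0368 and 0.0330 for DKO, within the range of 0.0308 to 0.0549 over the other libraries. The ratio of Mgarp to Bnip3l was 0.00687 and 0.00996 for DKO and lay between 0.0668 and 0.164 in the others. These 5 ratios were all that were computed.

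**Figure D4:**
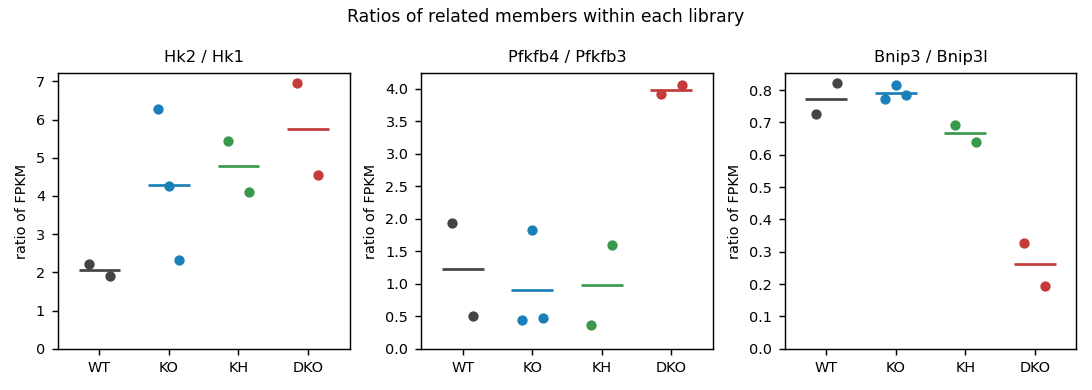
Ratio of FPKM within each library for Hk2 to Hk1, Pfkfb4 to Pfkfb3 and Bnip3 to Bnip3l, with 1 point per library and a line at the mean of each genotype. WT is lowest in the first panel, and the DKO libraries stand apart from all others in the other panels.

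As counted over the set in DKO against WT, 30 of the 37 genes had a log2 fold change below 0, against 7911 of the 16897 tested genes, and the median was -0.42 (-0.40 without Mgarp). The number below 0 was 24 without WT replicate 2 and 26 without DKO replicate 2. Both DKO libraries lay below both WT libraries in 22 genes (59.5%), which 26.4% of all tested genes also showed, and above them in 4 genes (10.8%, against 27.8%). Both DKO libraries were below all 7 other libraries in 11 genes (Tpi1, Pgam1, Ldha, Pdk1, Hif1a, Egln1, Bnip3, Bnip3l, Ak4, Mgarp and Ndrg1), where 5.56% of all tested genes had this pattern. At an unadjusted p below 0.05 in limma 12 genes (32.4%) would pass, against 13.8% of all tested genes, of which Hk2 alone was higher. The genes were not chosen independently of these libraries, so these shares are descriptive. A log2 fold change of -1 or less was found in 7 genes (3.26% of all tested genes) and one of 1 or more in 0 (1.98%).

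In KO and KH no member was called against WT, where 0.0296% of all tested genes were called in each of these comparisons. At an unadjusted p below 0.05 in limma, 2 members passed in KO (4.53% of all tested genes) and 3 in KH (3.72%). KO lay wholly below WT in 4 genes, Pfkp, Vegfa, Adm and Mxi1 (12.1% of all tested genes), and wholly above it in Hk2 (12.6%). KH lay wholly below WT in 5 genes, Pgam1, Eno1, Bnip3, Mgarp and Adm (16.6%), and above it in Hk2 and P4ha1 (15.3%). The median log2 fold change against WT was -0.05 in KO and -0.20 in KH. Neither sign was stable, and without WT replicate 2 the medians were 0.15 and 0.01.

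DKO was also compared with KO, which lacks Esrp1 alone, and with KH, which is heterozygous for Esrp2 in addition. Against KO, Ak4 and Mgarp passed the call rule as lower, of which Mgarp is descriptive (0.118% of all tested genes were called lower, 0.521% higher and 0.639% in either direction), and all DKO libraries were below all KO libraries in 14 genes (9.88% of all tested genes) and above them in Pfkfb4 (11.2%). At an unadjusted p below 0.05 in limma 8 members passed (6.8% of all tested genes). Without KO replicate 3, or with the replicate block, Mgarp alone was called, and neither gene was with no filter or with 1 DKO library left out, when that genotype rested on a lone library. Bnip3 was called in addition after rescaling to TPM. Over the fits that left out 1 library the log2 differences stayed between -3.20 and -2.60 for Mgarp and between -1.85 and -1.64 for Ak4. Against KH no member was called (0.426% of all tested genes were), 5 passed an unadjusted p below 0.05 in limma (5.71%), and 16 genes had both DKO libraries below both KH libraries (14.5%) and 4 had them above (14.3%). Mgarp passed the call rule there under 7 other settings, among them a pseudocount of 0.1 and rescaling to TPM. KH and KO, which differ in a single Esrp2 allele, gave no called member, with 0 of all tested genes called and 0 members at an unadjusted p below 0.05 in limma (1.09% of all tested genes). All KO libraries expressed Xist and neither KH library did, so sex and Esrp2 genotype cannot be told apart between them.

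Libraries of the same genotype also differed in the level of the whole set. Of the 37 genes 34 were higher in WT replicate 2 than in WT replicate 1 (91.9%), where 53.7% of all genes averaging at least 1 FPKM were, and the median difference was 0.35 on the log2 scale against 0.02. In KO, 29 genes were highest in replicate 3 (78.4%, against 35.9% of those genes). In DKO, 31 genes were higher in replicate 1 than in replicate 2 (83.8%, against 53.5%). Relative to the WT mean, the median over the set was -0.17 and 0.17 for WT, -0.26, -0.25 and 0.24 for KO, -0.20 and -0.10 for KH, and -0.28 and -0.67 for DKO. The set thus reached a higher level in KO replicate 3 than in either WT library, and the 2 DKO libraries differed by about as much as the WT libraries did. Both DKO libraries were below all 7 others for Mgarp, Bnip3 and Ak4. In all, 11 of the 37 genes showed this pattern, against 5.56% of all tested genes.

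**Figure D5:**
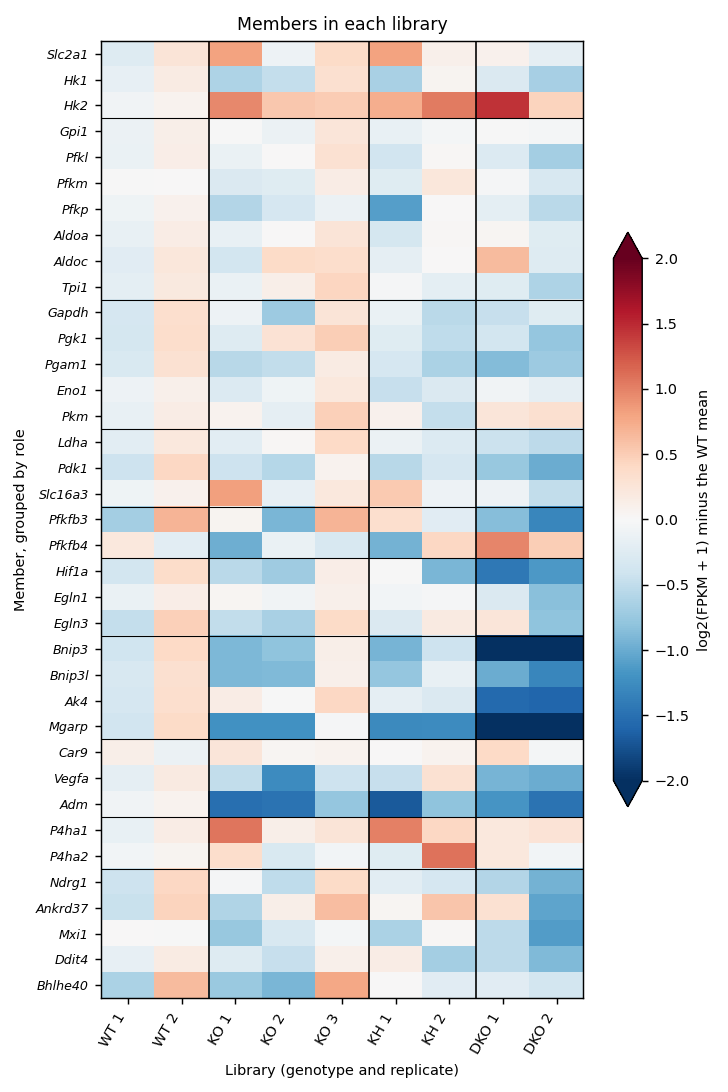
Each of the 37 genes in each of the 9 libraries as log2(FPKM + 1) minus the WT mean, grouped by role, with blue for lower and red for higher values and colours saturated beyond 2 in either direction. WT replicate 2 and KO replicate 3 are mostly red, DKO replicate 2 is mostly blue, and Mgarp and Bnip3 are saturated in both DKO libraries.

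Related genes outside the set were counted from lists of the same pathways. Of 29 tested genes of glucose handling and the rest of glycolysis, 1 was called in DKO against WT, Fbp2, the muscle isoform of fructose bisphosphatase, which works against glycolysis. Fbp2 was low, with 0.195 and 0.225 FPKM in WT, 0.0856, 0.268 and 0.205 FPKM in KO, 0.138 and 0.364 FPKM in KH, and 1.35 and 0.968 FPKM in DKO. It rose by 0.83 on the log2(FPKM + 1) scale against WT (SE 0.14, adjusted p = 0.037) and by 0.86 against KO (SE 0.13, adjusted p = 0.0207) in limma. Against KH it was not called. The DKO libraries were above all others. The 5 skeletal muscle markers were each below 1 FPKM in all libraries, with sums of 0.295 to 0.444 FPKM in WT and 0.443 to 0.509 FPKM in DKO.

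None of the 22 tested genes of pyruvate dehydrogenase and the TCA cycle was called in DKO against WT, and neither were the 8 of the pentose phosphate pathway, the 15 of the HIF machinery or the 32 other HIF targets. Their median log2 fold changes were 0.06, -0.18, -0.11 and -0.06, and the 29 genes of glucose handling and the rest of glycolysis had a median of 0.12 with 10 genes below 0. Genes of these lists that differed by at least 1 on the log2 scale without a call were the phosphoglucomutase Pgm2 (-1.19), the dehydrogenase H6pd of the endoplasmic reticulum (-1.11), the HIF asparaginyl hydroxylase Hif1an (-1.19, adjusted p = 0.136), the sterol regulator Insig2 (-1.63, adjusted p = 0.224), the inner mitochondrial membrane protein Higd1a (-1.33, adjusted p = 0.211), the nuclear receptor Rora (-1.26, adjusted p = 0.315) and the glycogen phosphorylase Pygl (-1.27, adjusted p = 0.109). All of these were lower in DKO, and the muscle phosphoglycerate mutase Pgam2 was just under the limit in the other direction, with means of 0.495 FPKM in WT and 2.13 FPKM in DKO (0.996, adjusted p = 0.147). Pygl had 39.6 and 62.2 FPKM in WT, 34.2 to 53.1 FPKM in KO, 36.6 and 35.0 FPKM in KH, and 21.9 and 18.2 FPKM in DKO, without overlap of DKO and the rest. Hif1an, which blocks the transactivation domain of HIF when oxygen is present, had 12.6 and 18.6 FPKM in WT, 9.12 to 15.2 FPKM in KO, 10.2 and 9.44 FPKM in KH, and 5.37 and 7.003 FPKM in DKO, again without overlap. No gene of the 5 lists was called in KO or KH against WT.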

How the data were processed

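RNA of 9 epidermis libraries (WT 2, KO 3, KH 2, DKO 2) was sequenced by the authors as paired reads from a stranded mRNA kit, mapped with TopHat 1.4.1 to mm10 and quantified with Cuffdiff 2.2.0, and the deposited values are FPKM per gene and library. The table's columns of genotype means, fold changes and p-values by the authors were not used. FPKM hold no read counts, so the depth behind a value is unknown and no counting interval is given. Libraries were grouped by their labels. Per the study's methods each library came from an individual embryo.

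The 16897 genes averaging above 0.1 FPKM in at least 1 genotype were analysed as log2(FPKM + 1), which understates changes of low genes, in limma 3.58.1 (R 4.3.3) with 4 genotype means over all 9 libraries, an intensity trend and Benjamini-Hochberg adjustment over all tested genes of each comparison, leaving 5 residual degrees of freedom. A call needed an adjusted p below 0.05 and more than 2-fold in average FPKM, the thresholds of the study's methods. The fit was tested on simulated data. All members are named, and values of every library are given for 16 of them (called in any comparison, a log2 fold change of at least 1 between DKO and WT, both DKO libraries outside all 7 others, or Hif1a, Gapdh and Pgk1). Hk2 is outside this rule and was given in full after its values were seen. Genes of the 5 pathway lists are named where called or where they differed by at least 1. Members, roles and lists were chosen with earlier results of these data known. Alternatives changed the pseudocount, filter, scaling, weights, length correction, replicate block and libraries, and those split by Xist were chosen after seeing the data. Promoter windows came from RefSeq (GRCm38.p6), and coordinates from GENCODE M21. Python 3.11.15 with pandas 2.3.3 and matplotlib 3.10.9 was used for tables and figures.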

Additional observations from a re-analysis of the deposited data

Results flagged for a closer look

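DKO and KO share the loss of Esrp1, and 2 of the genes are listed here for their difference between these genotypes. Mgarp differed by -2.999 on the log2 scale, lower in both DKO libraries than in all 3 KO libraries, and its differences to WT were -3.82 in DKO and -0.82 in KO. Its low level in DKO was known when it was chosen, so this is a description with no test. Ak4 differed by -1.76 (adjusted p = 0.0141 in limma), also lower in both DKO libraries than in all 3 KO libraries, with differences to WT of -1.57 in DKO and 0.18 in KO. Ak4 too belongs to a set chosen with earlier results of these data known. All KO libraries expressed Xist and neither DKO library did, so sex and Esrp2 genotype cannot be told apart in these values. Groups of 2 or 3 libraries were not tested for a single library that stands apart. KO replicate 3 correlated more with WT replicates 1 and 2 (Pearson r 0.984 and 0.990) than with KO replicates 1 and 2 (0.962 and 0.968). KH replicate 1 correlated more with KO replicate 1 (0.984) than with KH replicate 2 (0.940).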

How the results depend on the processing

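The number of members called in DKO against WT was 3, all lower, and it became 0 with no filter on low values, 1 (Mgarp) with a replicate block and 0 with only the low-Xist libraries. Leaving out 1 library gave 0 to 3. For DKO against KO it was 2, with 0 under no filter, 1 with the replicate block, 3 with TPM (Bnip3 added) and 0 to 2 when 1 library was left out, while the differences stayed between -3.20 and -2.60 for Mgarp and -1.85 and -1.64 for Ak4. With a pseudocount of 0.1 the difference of Mgarp was -4.24 against KO and -5.12 against WT, and that of Ak4 was -1.93 and -1.74. For DKO against KH it was 0, and it became 1 (Mgarp) with a pseudocount of 0.1, a filter at 1 FPKM, only the 2 genotypes compared, TPM, quantile normalization, the replicate block or the length correction, with 0 to 1 when 1 library was left out. A fit that keeps all genes tests many that are at 0 throughout, and calls over all genes fell from 123 to 41 in DKO against WT. They rose to 178 with TPM, 400 with only the 2 genotypes and 556 with array weights, and Adm was called in addition under the last 2. Bnip3 missed the call without the intensity trend and Ak4 with TPM. The replicate numbers do not pair the libraries: deviations of same-numbered libraries from their genotype means correlated between -0.60 and 0.49. The median over members in DKO against WT moved from -0.42 to -0.69 without WT replicate 1 and ranged from -0.69 to -0.24 when 1 library was left out. In KO it lay between -0.27 and 0.15, and in KH between -0.40 and 0.01. No called member changed sign under the 22 alternatives. The cause of these shifts was not tested.

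Limits are 2 or 3 libraries a genotype, unknown depth, sex that differs within WT and between KO and both KH and DKO, and the near-identical copies of Pgam1 and Pgk1. Copies of other members were sought by symbol only.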
